A study of Mus musculus with 9 samples.

Results

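The mevalonate pathway turns acetyl-CoA into isoprenoid building blocks and, further on, into the sterol skeleton. The 9 enzyme genes described here, Hmgcs1, Mvk, Pmvk, Mvd, Idi1, Fdps, Fdft1, Sqle and Lss, were chosen by name for their place between acetyl-CoA and lanosterol. All 9 were among the 13376 genes whose mean reached 1 CPM (counts per 1000000), out of 35580 genes with a deposited transcript. The RNA came from E14 cells, a mouse embryonic stem cell line, kept on gelatin in serum with leukaemia inhibitory factor (LIF). From the bulk line, 9 clones were picked for differing lipid droplet size and expanded, and poly(A) RNA of each was sequenced with a stranded kit. They are numbered 1, 4, 6, 8, 10, 11, 13, 14 and 17. Each clone is a single library, no genetic change or drug treatment is given for any of them, and the labels give no clone its droplet size, so the clones were left ungrouped and none was tested against another.

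In animal cells the early enzymes of the pathway make isopentenyl diphosphate, the common unit of isoprenoids, and the later ones condense it into farnesyl diphosphate, squalene and lanosterol, the first sterol. Farnesyl diphosphate is a branch point: it also feeds protein prenylation, dolichol and ubiquinone. The genes are textbook targets of the transcription factors SREBP1 and SREBP2, which are released from the endoplasmic reticulum when membrane sterol is low, and many SREBP-driven promoters also hold a CCAAT box, the binding motif of NF-Y.

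Promoter sequence was available from RefSeq (GRCm38.p6) for 6 of the 9 genes, as 7 promoters; Fdps, Fdft1 and Sqle had no entry. The 250 bases before each start were searched on both strands for CACNCCAC, a core form of the sterol regulatory element, TCANNTGA, an E-box that SREBP can bind, and CCAAT. The letters CCAAT were found in the windows of all 6 genes, in 6 of the 7 promoters, and in 33.8% of all 32851 mouse promoters of that length. The start that RefSeq gives for Idi1 lies inside the gene as GENCODE annotates it, so the 2 matches of Idi1 are within its annotated first exon. CACNCCAC was found before Hmgcs1 alone, against 5.29% of all promoters, and TCANNTGA before none of the 6, against 7.09%. The sterol element and the box together, as before Hmgcs1, were present in 1.60% of all promoters. Mvk had the most CCAAT matches, 5. These are matches of letters, and no binding was measured.

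The sequence before Hmgcs1 is shown for its sterol element match, and that before Mvk for its run of CCAAT matches. That before Mvd is shown because this gene varied over the clones unlike the kinases Mvk and Pmvk. All are printed 5′ to 3′ on the strand of the gene, with the matches to the sterol element and to the CCAAT box in capitals. A box that lies on the opposite strand reads ATTGG. They are chr13:119690101-119690350 (plus strand), chr5:114444061-114444268 (plus strand, where the first exon of Mmab, which is read the other way, adjoins it) and chr8:122443423-122443672 (minus strand).
Hmgcs1: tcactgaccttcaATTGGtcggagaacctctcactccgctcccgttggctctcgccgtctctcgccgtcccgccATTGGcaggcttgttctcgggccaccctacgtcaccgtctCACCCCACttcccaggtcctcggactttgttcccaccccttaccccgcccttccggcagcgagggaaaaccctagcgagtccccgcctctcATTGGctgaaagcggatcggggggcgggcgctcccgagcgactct
Mvk: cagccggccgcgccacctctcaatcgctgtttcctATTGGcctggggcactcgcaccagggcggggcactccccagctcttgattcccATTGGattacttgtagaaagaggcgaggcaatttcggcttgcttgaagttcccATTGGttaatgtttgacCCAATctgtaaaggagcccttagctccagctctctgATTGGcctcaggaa
Mvd: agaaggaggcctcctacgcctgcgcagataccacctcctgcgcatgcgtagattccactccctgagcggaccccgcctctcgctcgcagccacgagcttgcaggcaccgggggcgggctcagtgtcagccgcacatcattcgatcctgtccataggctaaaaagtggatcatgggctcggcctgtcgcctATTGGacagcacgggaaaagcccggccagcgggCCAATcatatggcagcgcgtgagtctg

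Sequencing depth was 10783718 estimated counts in clone 1 and 12926691 to 14309662 in the others. Levels of a gene are given in CPM of the scaled library, and its range is the log2 CPM of the highest clone less that of the lowest. Folds are the highest over the lowest clone, with a 95% exact interval that covers counting error only. A gene with no count in a clone could have up to 0.209 to 0.293 CPM there, and all 9 enzymes lay far above that. In bulk RNA, fewer cells making a transcript and less of it per cell cannot be told apart.

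The summed level of the 9 genes varied over the clones by less than the most variable of them; it does not cover every step of the pathway, since other genes of it were not analysed here. It was 1079.5 CPM in clone 4, 1046 in clone 1, 953 in clone 6, 951 in clone 13, 836 in clone 11, 831 in clone 10, 724 in clone 14, 699 in clone 8 and 673 in clone 17, a 1.60-fold span. Clones 4, 1, 6 and 13 were thus above the rest, clones 10 and 11 in the middle, and clones 14, 8 and 17 lowest. A range of 1 or more, a change of at least 2-fold on this scale, was reached by 4 of the 9 genes, Fdps, Fdft1, Pmvk and Sqle, and by 35.3% of all 13376 genes. Among the 5186 genes whose mean lay between those of Mvk and Hmgcs1, 29.7 and 248 CPM, 15.1% reached it. The median range was 0.89 for the 9 genes, against 0.78 for all genes and 0.58 for those of similar level. The 4 genes lay close to the threshold, and their number was 2 with libraries scaled by total count, 1 on the log2(TPM + 1) scale (TPM, the transcript share per length), and 2 without clone 17.

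**Figure D1:**
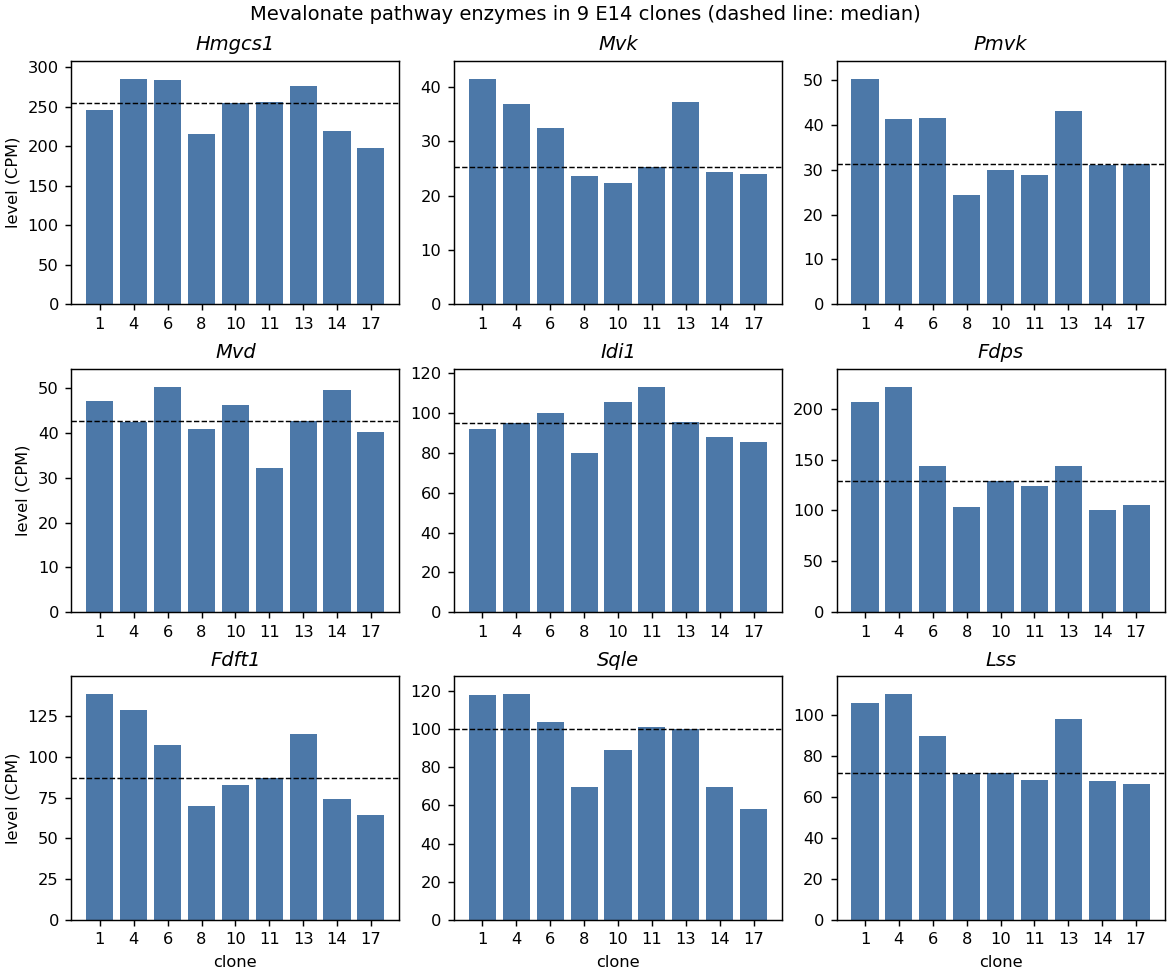
Level (CPM, linear axis from 0) of each of the 9 enzyme genes in each of the 9 clones, 1 library per bar, with the median as a dashed line. Fdps stands out in clones 4 and 1 (222 and 206 CPM), Mvk, Pmvk, Fdft1 and Lss are high in clones 1, 4, 6 and 13, and Sqle is low in clones 8, 14 and 17.

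The entry step had a range of 0.53, near the median of 0.58 for genes of similar level. Hmgcs1, the cytosolic HMG-CoA synthase, which joins acetyl-CoA to acetoacetyl-CoA, lies on chromosome 13 (119690379 to 119708260, plus strand, GRCm38). It had 285 CPM in clone 4, 284 in clone 6, 277 in clone 13, 256 in clone 11, 254 in clone 10, 246 in clone 1, 220 in clone 14, 215 in clone 8 and 197 in clone 17. The span was 1.44-fold (95% interval 1.37 to 1.52). Clones 14, 8 and 17 stood below the rest, and the step from clone 1 down to clone 14, 1.12-fold, was beyond counting error (1.06 to 1.18). Clone 1, among the highest for most of the other enzymes, was below the median here.

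The kinases that phosphorylate mevalonate moved alike. Mvk, mevalonate kinase, on chromosome 5 (114444269 to 114460591, plus strand), had 41.5 CPM in clone 1, 37.2 in clone 13, 36.8 in clone 4, 32.5 in clone 6, 25.2 in clone 11, 24.4 in clone 14, 24.0 in clone 17, 23.7 in clone 8 and 22.3 in clone 10. The clones thus fell into 4 high and 5 low, and the step between them, clone 6 over clone 11, was the sole step between neighbours in the order that exceeded counting error (1.29-fold, 1.12 to 1.48). From clone 1 to clone 10 the fold was 1.86 (1.60 to 2.16). Mmab, which shares the start region with Mvk in the opposite direction and encodes a cobalamin adenosyltransferase, had 12.9 CPM in clone 1, 12.3 in clone 6 and 12.0 in clone 13, and 8.02 in clone 14, its lowest. With 11.2 CPM in clone 11 and 9.84 in clone 4, its 4 highest clones were not those of Mvk.

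Pmvk, phosphomevalonate kinase, on chromosome 3 (89454541 to 89469013, plus strand), had 50.1 CPM in clone 1, 43.0 in clone 13, 41.4 in clone 6, 41.3 in clone 4, 31.2 in clone 17, 31.1 in clone 14, 29.8 in clone 10, 28.8 in clone 11 and 24.3 in clone 8. The same 4 clones as for Mvk were the highest, and the step from clone 4 to clone 17 was 1.33-fold (1.17 to 1.51). Clone 1 was above clone 13 by 1.17-fold (1.03 to 1.32), and clone 8 was below clone 11 by more than counting error. The span was 2.06-fold (1.79 to 2.37).

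Mvd, the decarboxylase that yields isopentenyl diphosphate, did not follow the kinases. It lies on chromosome 8 (122433601 to 122443422, minus strand) and had 50.4 CPM in clone 6, 49.6 in clone 14, 47.3 in clone 1, 46.3 in clone 10, 42.8 in clone 13, 42.4 in clone 4, 40.9 in clone 8, 40.2 in clone 17 and 32.2 in clone 11. Clone 11 stood apart below the other 8, which lay within a narrow band, and the step from clone 17 to clone 11 was the sole step beyond counting error (1.25-fold, 1.10 to 1.42). Clone 14, low for Hmgcs1, Fdps, Fdft1 and Sqle, was here the second highest. The span was 1.56-fold (1.39 to 1.76).

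Chromosome 8 was the chromosome of an enzyme gene on which most genes moved together. The median deviation of its other 713 tested genes from their medians over the clones was 0.32 in clones 14 and 17, 0.28 in clone 8, 0.26 in clone 10, -0.01 in clone 6, -0.18 in clones 1 and 4, -0.19 in clone 11 and -0.21 in clone 13, a range of 0.53. For the chromosomes of the other 8 enzymes that range was at most 0.041. With the chromosome median subtracted, Mvd stood at 0.32 in clone 1, 0.24 in clone 6, 0.21 in clone 13 and 0.17 in clone 4, and at -0.11 in clone 14, -0.15 in clone 10, -0.22 in clone 11, -0.35 in clone 8 and -0.41 in clone 17. Its 4 highest clones were then 1, 6, 13 and 4, as for Mvk and Pmvk, and its range was 0.73 in place of 0.64. This subtraction was chosen after the values were seen, and what part the chromosome had in the level of Mvd was not tested.

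**Figure D2:**
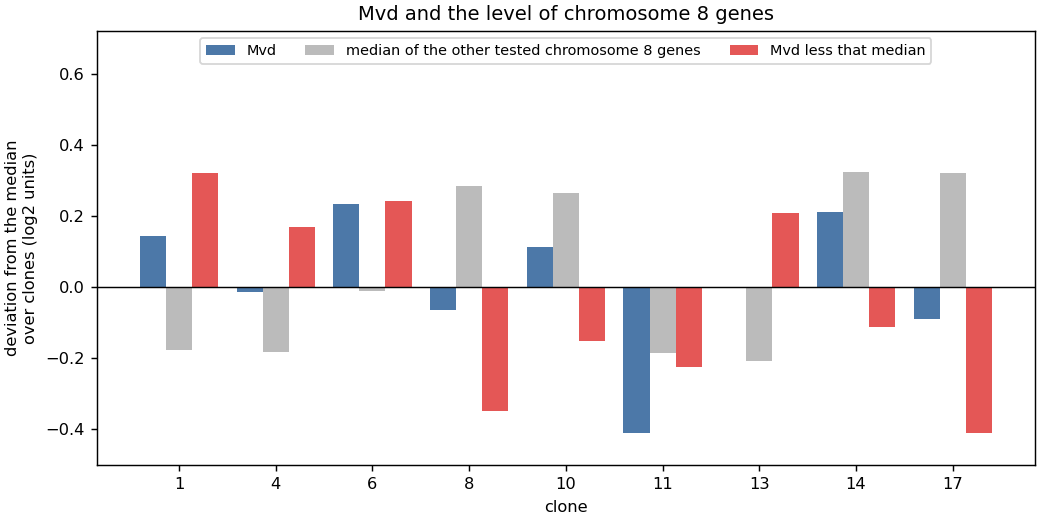
Deviation from the median over the 9 clones (log2 units) for Mvd, for the median of the other 713 tested genes of chromosome 8, and for Mvd less that median, by clone, 1 library each. Mvd is lowest in clone 11 (-0.41), the chromosome 8 genes are high in clones 8, 10, 14 and 17, and the difference is positive in clones 1, 4, 6 and 13.

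Idi1, the isomerase that interconverts isopentenyl and dimethylallyl diphosphate, had the narrowest range of the 9. On chromosome 13 (8885501 to 8892451, plus strand), it had 113 CPM in clone 11, 106 in clone 10, 100.1 in clone 6, 95.5 in clone 13, 95.2 in clone 4, 91.9 in clone 1, 87.9 in clone 14, 85.5 in clone 17 and 80.0 in clone 8. Clones 11 and 10 were highest for this enzyme alone, and no neighbours in the order differed by more than counting error, although clone 11 over clone 8 was 1.42-fold (1.31 to 1.53). The processed pseudogene Gm13502 holds 18.4% of the 31-base stretches of Idi1 and had 17.5 CPM in clone 4 and 5.70 to 11.2 in the others, so the split of reads between them is uncertain. Summed with it, Idi1 had a range of 0.48 in place of 0.50. The paralog Idi2 was at 0.308 CPM or less in every clone.

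Fdps, farnesyl diphosphate synthase, which makes the branch point metabolite, had the widest range, 1.14. On chromosome 3 (89093588 to 89101959, minus strand), it had 222 CPM in clone 4, 206 in clone 1, 144 in clones 6 and 13, 129 in clone 10, 124 in clone 11, 106 in clone 17, 104 in clone 8 and 100.2 in clone 14. Clones 4 and 1 stood well above the others, with clone 1 over clone 6 at 1.43-fold (1.35 to 1.52), and clones 17, 8 and 14 formed the low end, with clone 11 over clone 17 at 1.17-fold (1.10 to 1.26). The full span was 2.21-fold (2.07 to 2.36). Gm43738, which holds 24.6% of the 31-base stretches of Fdps, was at 2.85 CPM in clone 1 and at 1.48 or less in the others, so its counts were a small part beside those of Fdps.

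Fdft1, squalene synthase, commits farnesyl diphosphate to sterols. On chromosome 14 (63145150 to 63179578, minus strand), it had 138 CPM in clone 1, 129 in clone 4, 114 in clone 13, 107 in clone 6, 87.0 in clone 11, 82.6 in clone 10, 74.0 in clone 14, 70.0 in clone 8 and 64.3 in clone 17. The clones were again ordered as 4 high, clones 11 and 10 between, and 3 low, with a step from clone 6 to clone 11 of 1.23-fold (1.14 to 1.33) and from clone 10 to clone 14 of 1.12-fold (1.02 to 1.22). Clone 1 over clone 17 was 2.15-fold (1.98 to 2.34). The antisense neighbour Ctsb, a lysosomal protease, overlaps 17.6% of the 31-base stretches of Fdft1 and had 99.4 CPM in clone 1 and 64.6 in clone 11. Counting by strand is not stated in the labels or notes, so reads from the overlap may be split between them.

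Sqle, squalene epoxidase, which adds the first oxygen on the way to sterols, had 118 CPM in clones 4 and 1, 104 in clone 6, 101 in clone 11, 99.9 in clone 13, 89.4 in clone 10, 69.7 in clone 8, 69.6 in clone 14 and 58.1 in clone 17. It lies on chromosome 15 (59315077 to 59331192, plus strand). Here the gap was at the low end: clones 8, 14 and 17 lay below the other 6, with clone 10 over clone 8 at 1.28-fold (1.18 to 1.40), and clone 17 was below clone 14 by 1.20-fold (1.09 to 1.32). The span was 2.04-fold (1.87 to 2.22).

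Lss, lanosterol synthase, which closes the sterol rings, had the same 4 clones highest as the kinases. On chromosome 10 (76531588 to 76557138, plus strand), it had 110.2 CPM in clone 4, 106 in clone 1, 98.2 in clone 13, 89.9 in clone 6, 71.8 in clone 10, 71.4 in clone 8, 68.2 in clone 11, 67.6 in clone 14 and 66.4 in clone 17. The 4 high clones were separated from the 5 low ones by 1.25-fold (1.15 to 1.36, clone 6 over clone 10), and the 5 low clones were not separated from neighbour to neighbour by more than counting error. Clone 4 over clone 17 was 1.66-fold (1.53 to 1.81).

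Set against each gene's own median, most of the enzymes were high in clones 1 and 4, though how many passed a threshold depended on the clones that set the median. In clone 1, 5 of the 9 were at least 0.5 log2 units above their median (Mvk 0.71, Pmvk 0.68, Fdps 0.68, Fdft1 0.67 and Lss 0.56), against 7.16% of all genes, and none was as far below, against 7.57%. In clone 4, 4 were that far above (Fdps 0.78, Lss 0.62, Fdft1 0.57 and Mvk 0.54), against 6.59%, and none below, against 8.01%. Among the genes of similar level, 2.64% were that far above and 5.48% below in clone 1, and 2.89% above and 3.80% below in clone 4. Idi1 at -0.05 and Hmgcs1 at -0.05 were below their medians in clone 1, so the high levels there did not extend to all steps. In clone 13, Mvk alone was 0.5 or more above, at 0.56, against 5.02% of genes, and none was below, against 4.5%. In clone 6 all 9 lay above their median, from 0.06 for Sqle to 0.41 for Pmvk, but none by 0.5, against 3.66% of genes above and 3.82% below. On the log2(TPM + 1) scale, 1 enzyme passed 0.5 in clone 1, 1 in clone 4 and 0 in clone 13, and with libraries scaled by total count 2 passed it in clone 4 and 2 in clone 13. Without any 1 of clones 8, 10, 11, 14 and 17, which shifts the medians, the count was 3 in clone 1, 1 in clone 4 and 0 in clone 13.

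In clones 8, 14 and 17 the enzyme farthest below its median was Sqle. It alone, 1 enzyme of 9, was 0.5 or more below in clone 17 (-0.78), in clone 8 (-0.52) and in clone 14 (-0.52), against 10.7%, 10.8% and 8.86% of all genes in those clones, so the share of the enzymes was near that of all genes. Among the genes of similar level the shares were 5.01%, 5.21% and 3.41%, and 1 enzyme is too few to set them apart. Without clone 1, 4, 6 or 13 the count of enzymes was 0 in clones 8 and 14. Without clone 11 it was 0 in clone 14 and 2 in clone 17. It was 2 in clone 8 without clone 10, 14 or 17, and 2 in clone 17 without clone 8, 10 or 14. No enzyme was that far above in clone 17, clone 8 or clone 14, against 7.18%, 7.25% and 5.69% of genes. In clone 8 all 9 enzymes were below their median, Lss by the least at -0.01. In clones 10 and 11 the median deviation of the set was 0 and no enzyme was 0.5 away. That compares with 7.57% of genes above and 4.93% below in clone 10 and 9.32% above and 5.9% below in clone 11. The 0 follows in part from the measure. Clone 10 was itself the median clone for Hmgcs1, Fdps and Lss, and clone 11 for Mvk and Fdft1. Single enzymes differed: clone 10 was the lowest of all for Mvk (22.3 CPM), and clones 11 and 10 were the highest for Idi1. The lowest enzyme in clone 11 was Mvd at -0.41 and the highest was Idi1 at 0.25. With total count scaling, or on the log2(TPM + 1) scale, 2 enzymes were below by 0.5 in clone 17. On the log2(TPM + 1) scale 2 were also below by 0.5 in clone 14.

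**Figure D3:**
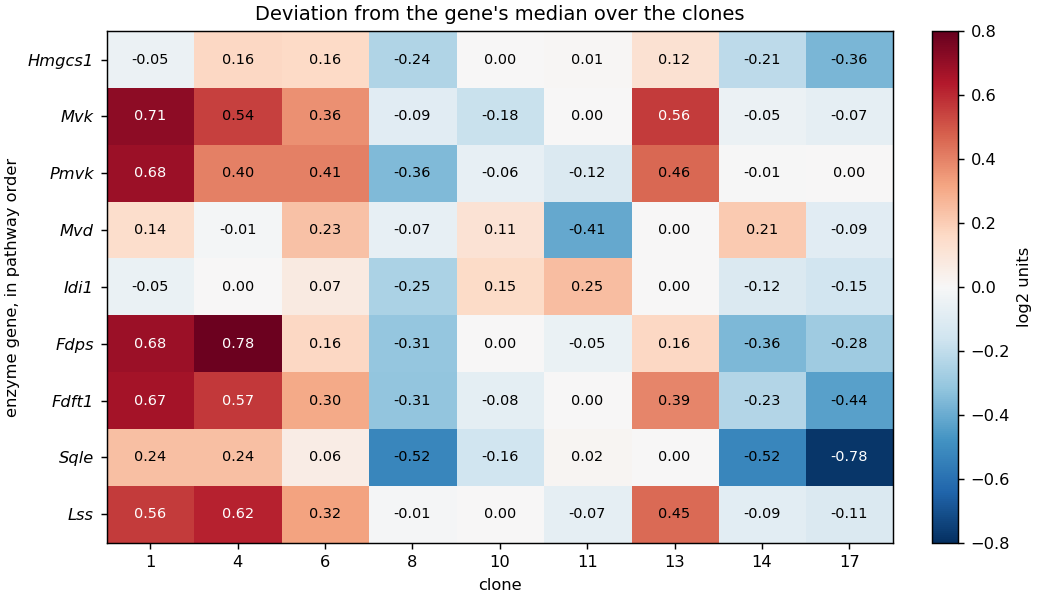
Deviation of each enzyme gene (rows, in pathway order) from its own median over the 9 clones (columns), in log2 units of CPM, red above and blue below. Clones 1 and 4 hold the highest values (up to 0.78 for Fdps in clone 4) and Sqle in clone 17 the lowest (-0.78).

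The order of the clones recurred from gene to gene. Clones 8, 14 and 17 were the 3 lowest for 5 of the 9 enzymes, Hmgcs1, Idi1, Fdps, Fdft1 and Sqle, against 14.1% of all genes and 12.98% of those of similar level. Clones 1, 4, 6 and 13 were the 4 highest for 5 of the 9, Mvk, Pmvk, Fdps, Fdft1 and Lss, against 9.22% of all genes and 9.89% of those of similar level. Fdps and Fdft1 showed both. These sets of clones were chosen after their values were seen, so the counts describe the order and are no test of it.

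By the mean absolute difference of deviations over the 9 clones, the closest pairs were Mvk with Lss (0.0875), Mvk with Pmvk (0.101), Fdps with Fdft1 (0.112), Pmvk with Lss (0.119) and Hmgcs1 with Idi1 (0.120). The pairs thus joined enzymes far apart in the pathway as well as consecutive ones. Mvk and Sqle were the farthest apart, at 0.365, since Mvk was spread at the high end and Sqle at the low end. Against the median of the other 8 enzymes, Lss lay nearest (0.155), while Idi1 (0.240), Mvd (0.279) and Sqle (0.293) lay farthest. The median of Sqle was its value in clone 13, and that of Mvk and Fdft1 their value in clone 11. These distances can therefore hold a constant offset, and a large distance need not mean another order of clones. Sqle had clones 8, 14 and 17 lowest and clones 4 and 1 highest, as had Fdps and Fdft1.

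Outside the pathway, the protein-coding gene nearest to the median deviation of the enzymes, of 8768 whose mean reached 10 CPM, was Gins1, a subunit of the GINS complex of the replicative helicase, at a distance of 0.0348 over the 9 clones. It had 57.4 CPM in clone 1, 54.4 in clone 4 and 35.5 in clone 8. The next were Trappc12 (0.0464), Ddah2 (0.0610), Comtd1 (0.0659), Mrps26 (0.0663), Mrpl36 (0.0670), Psmd4 (0.0673), Esrra (0.0674), Rpap1 (0.0676) and Lamtor4 (0.0716). A gene with no variation at all would lie at 0.209 and the median gene lay at 0.278. None of the 10 was in the acetyl-CoA, sterol or isoprenoid lists described below. The nearest gene of those lists was Acat2, of acetyl-CoA supply, the cytosolic thiolase that makes acetoacetyl-CoA, at rank 121.

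Levels of different enzymes can be compared per transcript length, in TPM. Fdps was the highest and Hmgcs1 the second highest in all 9 clones. The median over clones was 168 TPM for Fdps, 119.6 for Hmgcs1, 52.5 for Sqle, 51.8 for Fdft1, 44.8 for Idi1, 40.9 for Pmvk, 36.7 for Mvd, 29.1 for Lss and 26.2 for Mvk. The level of Fdps relative to Hmgcs1 was 2.28 in clone 1 and 2.18 in clone 4, while the remaining 7 clones lay between 1.23 and 1.49. Fdps relative to Idi1 was 5.82 in clone 4 and 5.58 in clone 1, and 2.75 in clone 11, the lowest. Sqle relative to Fdft1 was 1.10 in clone 11, the highest, and 0.820 in clone 13, the lowest.

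**Figure D4:**
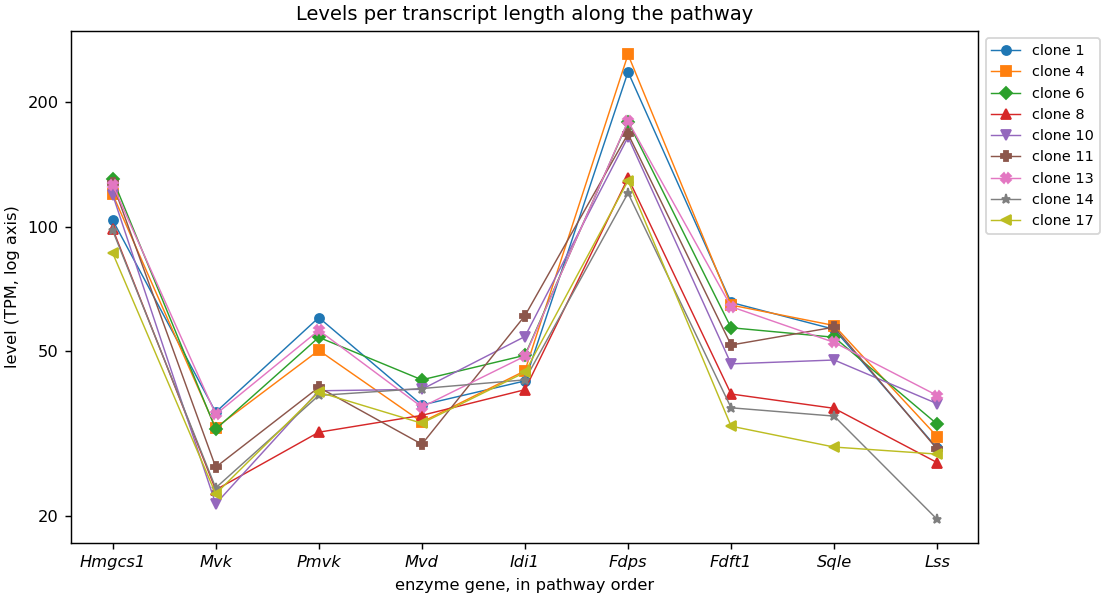
Level per transcript length (TPM, log axis) of the 9 enzyme genes in pathway order, 1 line per clone to guide the eye. Fdps is the highest gene in all 9 clones and Hmgcs1 the next, and the lines of clones 1 and 4 rise furthest at Fdps (237 and 261 TPM).

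Most enzymes were represented by a single main transcript. The first annotated transcript held 97.0% or more of the counts of Pmvk, Mvd and Idi1 in every clone, 93.1 to 97.4% for Fdps, 92.1 to 97.5% for Sqle, 86.1 to 90.5% for Fdft1, 82.9 to 88.6% for Lss and 81.4 to 86.3% for Hmgcs1. Mvk was the exception: Mvk-201 held 68.3 to 84.3%, and the alternative Mvk-202 held 24.4% in clone 11, 22.4% in clone 1 and 3.99% in clone 6. For Lss the short non-coding transcripts, with few counts, weighed on the TPM sum, of which Lss-201 was 89.5% in the highest clone and 50.3% in the lowest. Lss-201 alone was at 27.8 TPM in clone 4 and 17.2 TPM in clone 17, the same end clones as in CPM. With main transcripts alone on the log2(TPM + 1) scale, a setting added after the values were seen, Fdps, Fdft1 and Sqle had a range of 1 or more and the median range was 0.71.

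Neighbouring lists of genes shared the pattern in part. Of 10 enzymes of late cholesterol synthesis, from lanosterol to cholesterol, 3 had a range of 1 or more, against 35.3% of all genes. They were Tm7sf2 (1.19), a sterol C14 reductase, Ebp (1.11), the sterol isomerase, and Dhcr7 (1.02), which makes cholesterol from its last precursor. Tm7sf2 was highest in clone 1 at 10.6 CPM and lowest in clone 10 at 4.56, while Ebp was highest in clone 4 at 36.7 CPM and lowest in clone 11 at 16.9. Clones 8, 14 and 17 were the 3 lowest for 5 of the 10, among them Cyp51, Nsdhl, Hsd17b7 and Dhcr7, against 14.1% of all genes. The same was so for 5 of the 9 early enzymes. Clones 1, 4, 6 and 13 were the 4 highest for 0 of the 10, where 9.22% of all genes had that order. The median deviation of the late list was 0.08 in clone 1 and -0.01 in clone 4, where that of the mevalonate enzymes was 0.56 and 0.40. The difference between the lists was not tested.

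Of 6 genes of acetyl-CoA supply, 1 had a range of 1 or more, Acss2 (1.25), which makes acetyl-CoA from acetate, against 35.3% of all genes. Acly, ATP-citrate lyase, had 973 CPM in clone 4, 869 in clone 1 and 840 in clone 6, and 580 in clone 14 and 576 in clone 17, with a range of 0.76. Slc25a1, the mitochondrial citrate carrier, had 97.3 CPM in clone 4 and 61.7 in clone 8. The list was highest in clones 4 and 1 and lowest in clones 14 and 17, with median deviations of 0.25, 0.17, -0.30 and -0.27.

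Among 17 genes of sterol sensing, uptake and efflux, 7 had a range of 1 or more, against 35.3% of all genes. They were led by Mylip (2.29), a ubiquitin ligase that acts on lipoprotein receptors, Abca1 (2.23), the cholesterol exporter, and Nr1h3 (1.69), the oxysterol receptor LXR alpha. Abca1 ran against the enzymes, with 109 CPM in clone 8, 94.3 in clone 17 and 66.2 in clone 14, and 23.1 in clone 4. Mylip, also a known LXR target, had 6.94 CPM in clone 4 and 1.30 in clone 17, and Nr1h3 was near the filter, at 0.503 to 1.95 CPM. Insig1, an SREBP target that retains SREBP in the endoplasmic reticulum and is named here after its values were seen, had 113 CPM in clone 4, 104 in clone 1 and 50.8 in clone 17, a range of 1.15. Abcg1, of the same list and also named after its values were seen, did not follow Abca1. It had 43.7 CPM in clone 1 and 40.1 in clone 13, against 22.8 in clone 8, 20.5 in clone 17 and 18.9 in clone 11.

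The branches that use isoprenoids had a median range of 0.57. It was 0.89 for the 9 enzymes and 0.58 for the genes of similar level to these enzymes. Of 13 genes of those branches, Coq2 (1.05), of ubiquinone synthesis, reached a range of 1, ahead of Nus1 (0.82), of dolichol synthesis, and Fnta (0.70), the subunit shared by the prenyltransferases. Coq2 had 24.9 CPM in clone 1 and 12.0 in clone 14. Of 9 measured genes of sterol-dependent degradation in the endoplasmic reticulum, 2 reached it, among them Rnf145 (1.03), a ubiquitin ligase, while Nploc4 (0.66), an adaptor of the p97 ATPase, did not. Fnta lies on chromosome 8 and had its highest value in clone 10. Of 5 measured genes of sterol esters and oxysterols, Cyp7b1 (2.12), Lipa (1.54) and Soat1 (1.22) reached it, and Soat1, which esterifies cholesterol for storage in droplets, had 80.3 CPM in clone 11 and 34.4 in clone 14. Cyp7b1 was near the filter, at 0.419 to 2.32 CPM, and its range rests on 6 to 32 counts. The shares of these lists stand against 35.3% of all genes.

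**Figure D5:**
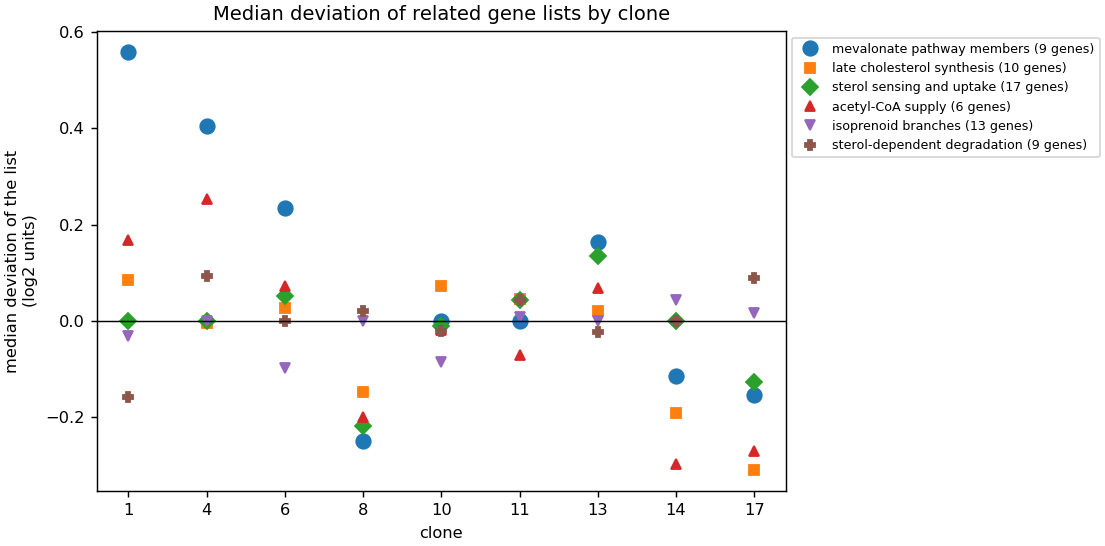
Median deviation (log2 units) of the 9 mevalonate pathway enzymes and of 5 related gene lists in each clone, 1 library each; the number of genes is in the legend. The enzymes are highest in clones 1 and 4 (0.56 and 0.40), where the late cholesterol list is near 0.

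The clones also differed in marker genes of cell state. All 8 pluripotency markers were measured, and their summed level was 3709 CPM in clone 11 and 4010 in clone 10, while the remaining 7 had between 5546 and 6340. Of 9 trophoblast markers 8 were above the filter. The whole list summed to 543 CPM in clone 11 and 508 in clone 10, but to between 71.4 and 170 in the rest. Krt8 was at 277 to 278 CPM and Krt18 at 167 to 182 CPM in clones 10 and 11, and these genes held most of the sum there. The list did not move as a whole: Tfap2c, named after its values were seen, had 58.7 CPM in clone 11, 42.4 in clone 10 and 37.4 to 82.7 elsewhere. Of 8 fibroblast markers 5 were above the filter. The whole list summed to 118 CPM in clone 11 and 90.7 in clone 10, but to 8.12 to 25.0 in the others. Tagln (54.3 and 36.8 CPM) and Col1a1 (42.5 and 33.4) held most of the sum there. Thy1, named like Tagln after its values were seen, was not raised there (7.54 and 7.39 CPM) and was highest in clone 4 at 10.4. The defining Lum was at 0 in the median clone and at 0.0762 CPM at most, and Postn at 0.489 CPM at most. Of 6 mesoderm markers 3 passed the filter (T, Kdr and Wnt3), and the list summed to 54.6 CPM in clone 11 and 26.3 in clone 10, but to between 3.79 and 12.1 elsewhere. Among the neural markers, of which 4 of 6 passed, Sox1, a chromosome 8 gene, had 7.11 CPM in clone 17, 5.28 in clone 8 and 2.92 in clone 14, the clones lowest for the summed enzymes, and 0.767 or less elsewhere. The neural markers did not move together. Nes had 106 and 98.6 CPM in clones 10 and 11 and was lowest in clone 17, at 14.4 CPM. Pax6 was highest in clone 8 at 12.5 CPM, but was at its median, 7.55 CPM, in clone 17. Tubb3, named after its values were seen, was lowest in clone 8, at 96.5 CPM. For the summed enzymes, clones 10 and 11 lay in the middle. Within the pluripotency list, Nanog had 537 CPM in clone 1 and 493 in clone 13, against 280 in clone 17 and 264 and 248 in clones 10 and 11. Other pluripotency markers, named after their values were seen, differed from it. Pou5f1 was highest in clone 17 at 1289 CPM, against 1020 in clone 1 and 978 in clone 13. Esrrb was highest in clone 17 at 716 CPM, against 669 in clone 1. Clones 1, 4, 6 and 13 were the 4 highest for 2 of the 8, Nanog and Tfcp2l1, against 9.22% of all genes. The part of these differences in the levels of the enzymes was not tested.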

How the data were processed

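RNA sequencing of 9 E14 clones, 1 library each, was used. The submitters' processing notes name kallisto 0.43.1, Trimmomatic 0.33, CASAVA 1.8 and FastQC, and the mouse builds mm10 and GRCm38; the annotation release and strand setting are not given in these sources. The authors deposited estimated counts (expected counts) and TPM per transcript for 115270 transcripts, and 113580 of them were matched by Ensembl identifier, without version, to GENCODE (GRCm38) and summed per gene. Unmatched transcripts held 0.641 to 0.773% of counts and were left out.

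A gene was kept where its mean reached 1 CPM. Log2 CPM (prior count 2) used TMM factors of edgeR 4.0.16 in R 4.3.3. The range is the highest minus the lowest clone, called at 1. A deviation is log2 CPM less the gene's median over clones, called at 0.5. Folds carry exact conditional binomial intervals (95%) on counts rounded to whole numbers; these cover counting error only, not variation between cultures. Levels of different genes were compared in TPM. Apart from Dixon's criterion, described below, no test between clones was made, since the labels form no groups. The planned design was kept, with settings added to it: main transcripts alone, Idi1 summed with Gm13502, and Mvd less the chromosome 8 median. The sets of clones compared by their order were also chosen after the values were seen. Motifs were searched in 250 bases before RefSeq starts; printed stretches leave out annotated exons.

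The genes named are the 9 enzymes, the 3 genes of widest range per list, the 10 genes nearest to the enzymes' median deviation, and paralogs, overlapping genes and pseudogenes; a few genes this rule names are not reported here. The enzymes and lists were chosen with earlier results of these data known. Alternatives were DESeq2 1.42.0 size factors, total count scaling, prior count 0.5, log2(TPM + 1), a minimum of 5 CPM or none, and leaving out each clone. The scripts were tested on simulated data.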

Additional observations from a re-analysis of the deposited data

Results flagged for a closer look

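Mvd met the criterion for a clone lying apart from the others. Clone 11, at 32.2 CPM, was the lowest of 9. In log2 CPM, its gap to the next clone divided by the whole range was 0.498, just above Dixon's 95% critical value for 9 samples. The criterion was applied on the log2 scale alone, and the CPM values themselves need not meet it. Chance flags about 1 in 20 such groups, and the other 8 enzymes and their median deviation were not flagged. With the median of the chromosome 8 genes subtracted, clone 11 stood at -0.22 and clones 17 and 8 were lower, at -0.41 and -0.35.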

How the results depend on the processing

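The number of enzymes with a range of 1 or more was 4 as reported, 4 with DESeq2 size factors or a prior count of 0.5, 2 with total count scaling, 1 on the log2(TPM + 1) scale and 2 to 4 when each clone was left out in turn. It was 2 without clone 17. The median range, 0.89, lay between 0.73 (without clone 1) and 0.89 over the leave-one-out settings, at 0.76 without clone 17, and 0.71 with main transcripts on the log2(TPM + 1) scale. The span of the median deviation, 0.81, was 0.66 to 0.79 with a clone left out, 0.42 on the log2(TPM + 1) scale and 0.64 with main transcripts there; the cause was not tested. For single genes and clones, 296 values under an alternative stayed close to the reported one and 51 moved by more than counting error, or by more than 1.5 times for a count. With a minimum mean of 5 CPM, 23.2% of all genes passed, in place of 35.3%, and with no minimum 46.6%. No paired analysis was possible because the clones form no groups and share no replicate numbers. With 1 library per clone, differences include culture, library and clone effects together, and counting error is the sole error measured.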
